A study of Mus musculus with 4 samples.

Results

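Cycling keratinocytes were epithelial cells of mouse skin and cheek lining that held transcripts of the cell division programme. They were selected on measured transcripts in 4 Xenium slides: a cell needed at least 10 transcripts, at least 6 transcripts summed over *Top2a*, *Cenpf*, *Prc1*, *Cdc20*, *Rrm2* and *Uhrf1*, at least 2 summed over *Krt5*, *Col17a1*, *Dsg3* and *Cdh3*, and fewer than 3 of *Shh*. The rule found 6961 cells among 515791 cells, or 1.63% of the 426792 cells with at least 10 transcripts, and 6948 of them lay in 1 of 17 tissue sections. The 114376 other keratinocytes, against which they are set, met the same keratinocyte and *Shh* criteria with fewer cell cycle transcripts. All mice of the skin slides were littermates of a Tet-On line, TRE-Pitx1/Krt5-rtTA, in which the *Krt5* promoter drives the doxycycline-dependent activator in basal keratinocytes. Control animals received normal chow and PITX1+ animals doxycycline chow, labelled Vehicle and Doxycycline. Unwounded dorsal skin of females lay on 1 slide and of males on another, male dorsal wounds of day 4 on the third, and buccal mucosa of both sexes, labelled Control and Vehicle, on the fourth. The labels give no age. Every section was a 5 µm slice of fixed, paraffin-embedded tissue.

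The labels name both conditions for each skin slide and do not say which section is which. Sections were therefore told apart by position: on each skin slide the leftmost section was taken as Control, on the female slide the leftmost pair, and the others as PITX1+. Control 1 and Control 2, PITX1+ 1 and PITX1+ 2 are the female sections, Control 3, PITX1+ 3 and PITX1+ 4 the male ones. The transgene gives a check. In the cycling keratinocytes, *Pitx1* stood at 183, 0 and 0 CPM (counts scaled to a total of 1000000 over the 317 panel genes outside the rule) in Control 1 to 3. In PITX1+ 1 to 4 it stood at 62.3, 132, 1138 and 1123 CPM. With 16 members, Control 3 is too shallow for its 0 to be set against these values, and the female PITX1+ sections lay below Control 1, whose value rests on 2 transcripts. In the other keratinocytes *Pitx1* stood at 23.3 CPM, or 2 transcripts, in Control 3 and at 1270 and 900 CPM in the male PITX1+ sections, which were thus far above it. Over all keratinocytes the female sections assigned to PITX1+ had 44.0 and 88.1 CPM against 66.5 and 48.9 CPM in the female Control sections, so *Pitx1* does not bear out the assignment on the female slide. For that reason every difference below is one between sections assigned to PITX1+ and sections assigned to Control. The gene fits between them carry a slide term. By number of cells with at least 3 different genes, each female section was within 0.332% of a total listed for its assigned condition. Totals the study listed for other conditions were at least 9.09% away. In the wounds *Pitx1* stood at 96.8 CPM in the Control wound and at 954 and 710 CPM in the PITX1+ wounds. Buccal sections, in which *Pitx1* is an endogenous gene, ran from 730 to 2333 CPM with a median of 1281.

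Keratinocytes divide mainly in the basal layer, on the basement membrane, and in the matrix of growing hair follicles, where *Shh* is expressed; daughter cells that leave these places stop dividing and differentiate. *Rrm2*, a ribonucleotide reductase subunit that makes deoxynucleotides, and *Uhrf1*, which maintains DNA methylation behind the replication fork, are used while DNA is copied. *Top2a* untangles DNA, *Cenpf* sits on kinetochores, *Prc1* bundles the microtubules of the central spindle and *Cdc20* activates the anaphase-promoting complex, and these accumulate towards mitosis.

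The promoters of the rule's genes are shown because a short element, the cell cycle homology region (CHR), is known for gene expression late in the cell cycle. The CHR letters TTTGAA or TTCGAA, searched on both strands (TTCGAA reads the same on both), were found in the RefSeq promoters (250 bases before to 50 after each listed start, GRCm38.p6) of 4 of the 9 cell cycle genes with a promoter there. These were *Top2a*, *Cenpf*, *Prc1* and *Cdc20*, while *Rrm2*, *Uhrf1*, *Tyms*, *Pttg1* and *Ezh2* had no such letters in the window. Among all 32851 promoters 19.2% held at least 1 of them. Each stretch of 30 bases below is written 5′ to 3′ on the gene's own strand, with the CHR letters in capitals:
Top2a (chr11:99024195-99024224, minus strand): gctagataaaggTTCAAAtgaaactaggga
Cenpf (chr1:189688067-189688096, minus strand): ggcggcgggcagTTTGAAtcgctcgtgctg
Prc1 (chr7:80294434-80294463, plus strand): cctctggctcggTTTGAAttccgcggggtc
Cdc20 (chr4:118437344-118437373, minus strand): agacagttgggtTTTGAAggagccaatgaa
The *Top2a* promoter held CHR letters at 4 places, and the one shown is the nearest to the start. It lies on the opposite strand, so that TTTGAA reads as its complement. The forms TTTCCCGC, TTTGGCGC, TTTCGCGC and TTTGCCGC, known from sites of E2F factors, were found on either strand in *Uhrf1* and *Ezh2* among the same 9 genes and in 2.26% of all promoters. These matches describe letters in a window and say nothing of binding.

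Among the members, *Top2a* was found in 96.9% of cells with a mean of 3.76 transcripts per cell, and *Prc1* in 87.3% with 2.79. *Cenpf* was found in 66.1%, *Cdc20* in 58.0%, *Uhrf1* in 52.3% and *Rrm2* in 33.8%. These genes chose the cells, so their levels are a description only. At the threshold, the 1320 cells with exactly 6 rule transcripts had a median nucleus of 31.9 µm² and 0.430 *Tyms* transcripts per cell, and the 1898 keratinocytes with 5, just outside, had 30.9 µm² and 0.377. Between 12.3% and 34.1% of the members of a section stood exactly at 6.

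Of the panel's cell cycle genes, 4 were not in the rule. *Tyms*, which makes thymidylate for DNA, had a transcript in 40.2% of members and 7.56% of other keratinocytes. The linker histone gene *Hist1h1b* was in 84.1% against 21.2%, the securin gene *Pttg1* in 22.1% against 5.61%, and the histone methyltransferase gene *Ezh2* in 44.7% against 13.5%. In each skin section and wound, members were also deeper than the keratinocytes as a whole, with medians of 88 to 171.5 against 30 to 115 transcripts. In buccal sections the medians were 143 to 195 and 119 to 199.5 outside Buccal 3, and in Buccal 1 the members were the shallower. No test was made between members and the rest because the rule draws that line.

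The keratinocyte label held against markers the rule did not use. *Trp63*, the transcription factor of stratified epithelia, was found in 90.4% of members and 64.4% of other keratinocytes, and in 8.06% of the 1364 cells that had 6 cell cycle transcripts but no gate transcript. The list of other epithelial markers had a transcript in 99.7% of members and 97.4% of other keratinocytes. Transcripts of other lists were present too. Those of the fibroblast list were in 56.1% of members and 35.0% of other keratinocytes, *Col1a1* alone in 39.6% and 23.3%. Those of the immune list were in 21.9% and 23.8%. The sebaceous list was in 71.4% and 57.1%, of which *Scd2* alone in 65.5% and 49.2%, while *Cidea* was in 3.20% and 6.91%. Members with at least 2 transcripts summed over the immune, fibroblast, vascular and muscle lists were counted as mixed. They made up 25% to 61.4% in Control, 48.1% to 60.9% in PITX1+ skin and 12.7% to 24.3% in buccal sections. Their part in the differences between conditions was not tested.

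In unwounded skin, 2.61%, 1.26% and 0.639% of keratinocytes were cycling in Control 1 to 3, which is 115, 44 and 16 cells. In PITX1+ 1 to 4 the shares were 2.05%, 5.87%, 6.77% and 12.5%, or 297, 1266, 1174 and 1373 cells. The lowest PITX1+ section lay inside the Control range and the other three above it. Means were 6.81% ± 4.34 (SD, n = 4) and 1.5% ± 1.01 (SD, n = 3), and the exact two-sided permutation test gave p = 0.114 (0.175 adjusted over the 3 pairs of conditions), where the smallest p this design allows is 0.0571. These shares count cells by the rule's own genes, so their p-values, here and below, measure only the spread between sections. Members were also counted per area of the section, in squares of 50 µm that held a cell. They numbered 19.1, 8.20 and 2.98 per mm² in Control and 30.6, 107, 156 and 196 per mm² in PITX1+ skin, with no overlap. This count rises with the number of keratinocytes per area. That number was also higher in each PITX1+ section than in each Control section.

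Depth bears on these shares, because a cell with more transcripts reaches 6 more easily. The median keratinocyte had 52, 47 and 30 transcripts in Control and 78 to 104 in PITX1+ skin. With each keratinocyte thinned to 50 transcripts, shallower ones left out and cycling called from 3, the shares were 5.48%, 3.46% and 3.90% in Control and 3.52%, 9.26%, 9.62% and 13.3% in PITX1+ skin (exact permutation p = 0.171). Thinning moved PITX1+ 1 from the upper part of the Control range to its low end, and the other PITX1+ sections stayed above it. Thinned to 100 transcripts, the shares were 6.17%, 3.09% and 2.74% in Control and 2.18%, 5.96%, 10.0% and 13.0% in PITX1+ skin, so that PITX1+ 1 lay below Control, PITX1+ 2 inside its range and only the male PITX1+ sections above it (exact permutation p = 0.4). As a rate, rule transcripts numbered 98.1, 67.4 and 64.1 per 10000 keratinocyte transcripts in Control and 61.3, 122, 140 and 183 in PITX1+ skin, with PITX1+ 1 below each Control section and the others above.

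**Figure D1:**
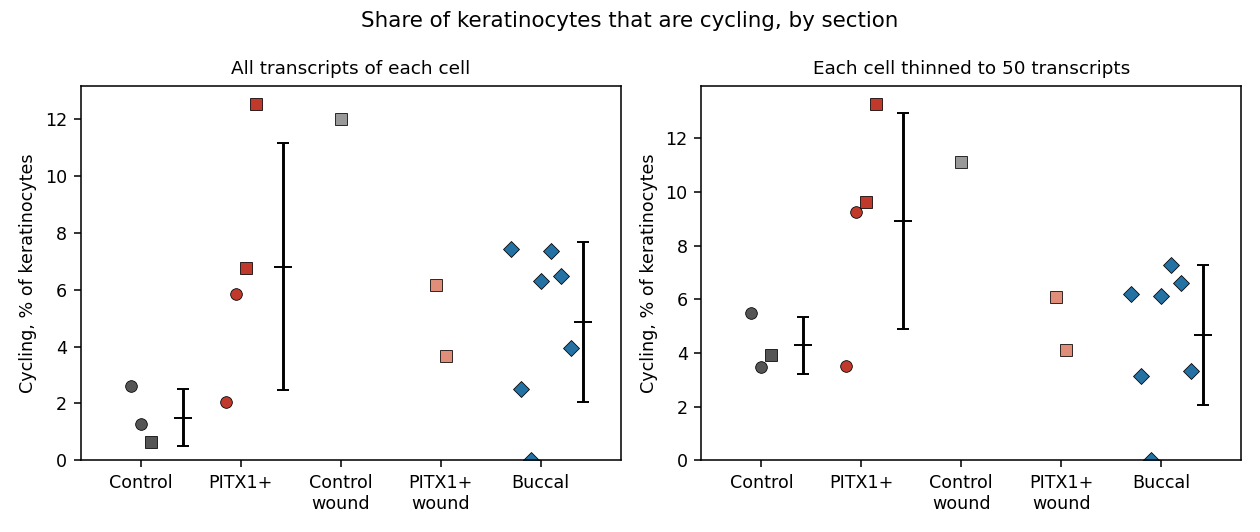
Share of keratinocytes that are cycling in each section, in percent, from all transcripts (left) and after thinning each keratinocyte to 50 transcripts (right). Each point is a section (circles female slide, squares male slides, diamonds buccal slide) and bars give mean ± SD of groups with at least 3 sections. PITX1+ sections spread from 2.05% to 12.5% on the left, and the Control sections move from 0.639% to 2.61% up to 3.46% to 5.48% after thinning.

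Day 4 wounds held cycling keratinocytes in both conditions, with the highest share in the Control wound. In the Control wound 12.0% of 4080 keratinocytes were cycling (95% Clopper-Pearson interval 11% to 13.0%), against 6.18% (5.73% to 6.66%) of 10598 and 3.67% (3.34% to 4.03%) of 11604 in the PITX1+ wounds. Thinned to 50 transcripts the order was the same, with 11.1%, 6.10% and 4.11%. There was a single Control wound, so no test was made, and all intervals given here cover counting error only.

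Buccal sections had shares of 2.50% to 7.42% with a median of 6.30%, apart from Buccal 3, a small piece with 0 of 13 keratinocytes, which allows a share of up to 23.1%. Their mean of 4.86% ± 2.81 (SD, n = 7) differed neither from Control (exact permutation p = 0.117, smallest possible 0.0167) nor from PITX1+ skin (exact permutation p = 0.406) by more than the spread between sections. The first result rests on Buccal 3, since without it the difference from Control was 4.17 percentage points (exact permutation p = 0.0476, not adjusted over the 3 pairs). These shares count cells by the rule's own genes, and their p-values measure only the spread between sections. As a rate the order turned: rule transcripts numbered 28.8 to 82.4 per 10000 keratinocyte transcripts in buccal sections, with a mean -25.3 from that of Control and -75.4 from that of PITX1+ skin. These are the genes of the rule, so this rate is a description with no test. Thinned to 50 transcripts, buccal keratinocytes were cycling in 3.14% to 7.28% outside Buccal 3, which overlaps both skin groups.

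**Figure D2:**
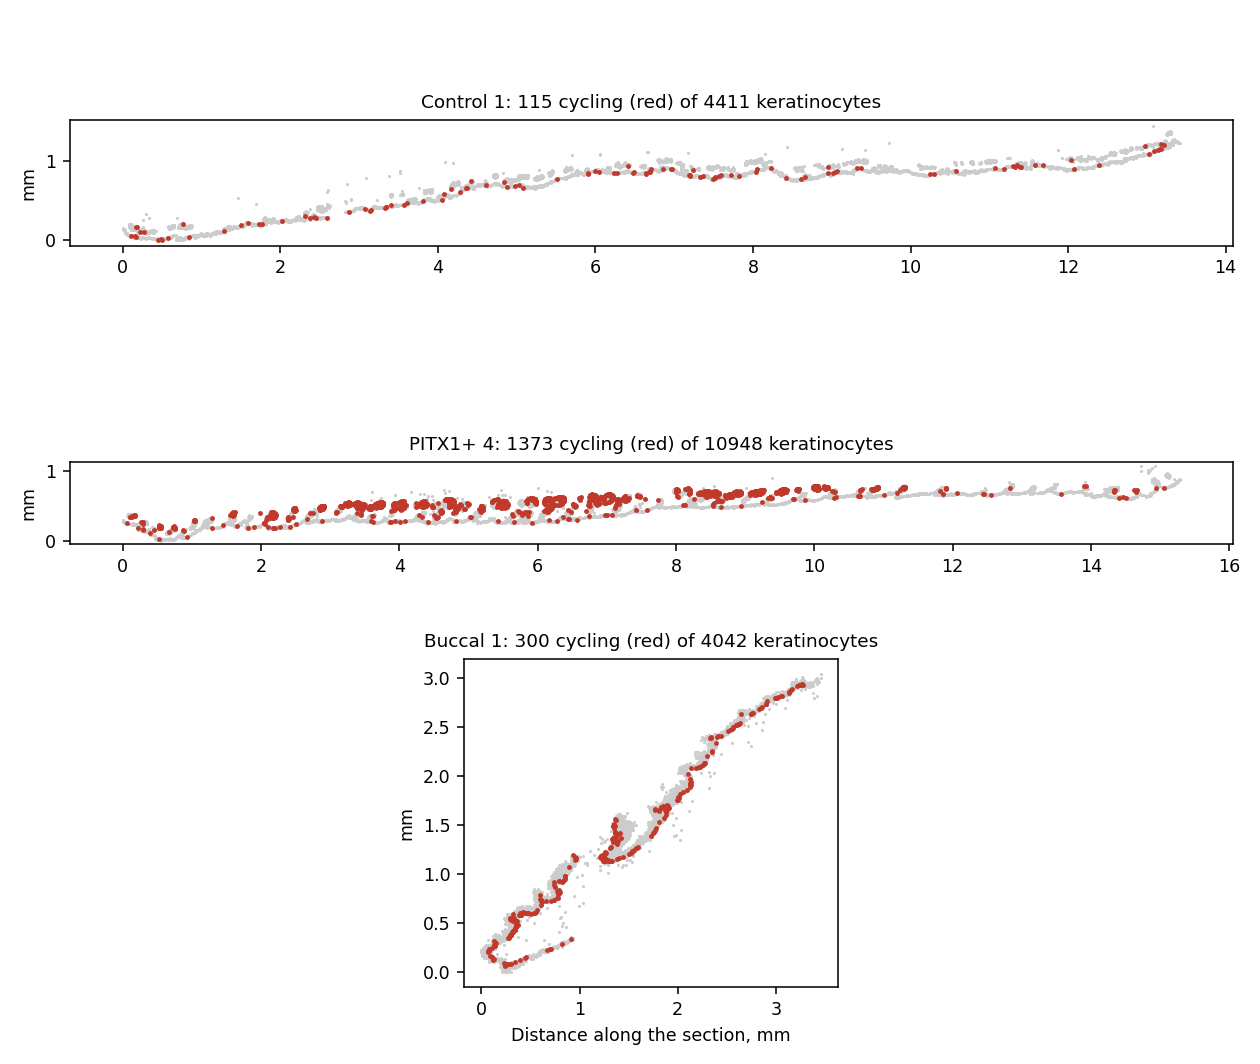
Positions of cycling keratinocytes (red) among the other keratinocytes (grey) in Control 1, PITX1+ 4 and Buccal 1, with both axes in mm and a scale of its own for each panel. The panels hold 115 of 4411, 1373 of 10948 and 300 of 4042 keratinocytes as cycling cells. Red cells are scattered in Control 1 and lie in dense groups in PITX1+ 4.

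Members differed in which phase their transcripts leaned to. Cells with at least 3 transcripts of *Rrm2* and *Uhrf1* and at most 1 of *Cenpf*, *Prc1* and *Cdc20* were called S-leaning, and cells with the reverse M-leaning. S-leaning cells made up 0.870%, 2.27% and 0% of the members in Control, where the 0 of 16 members in Control 3 allows up to 18.8%. In PITX1+ 1 to 4 they made up 1.35%, 1.97%, 9.88% and 9.98%. The high values were those of the male PITX1+ sections. These classes are drawn from genes of the rule, so no test between conditions is given. Wounds, also male, had 6.94% (Clopper-Pearson 4.85% to 9.56%), 7.63% (5.72% to 9.94%) and 9.39% (6.79% to 12.6%), and buccal sections 0.694% to 6.59% with a median of 2.36%. M-leaning cells were the majority in Control, at 86.1%, 79.5% and 56.3%, and made up 77.4%, 67.9%, 39.2% and 37.0% in PITX1+ skin.

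The single rule genes are given here as description. *Uhrf1* stood at 0.217 and 0.250 transcripts per member in the female Control sections and 0.256 and 0.369 in the female PITX1+ sections, 0.3125 in the male Control section, and 1.46 and 1.815 in the male PITX1+ sections. The value of the male Control section is 5 transcripts. In the wounds *Uhrf1* stood at 1.28, 1.02 and 0.993 transcripts per member, and in buccal sections at 0.257 to 0.835. Among unwounded skin sections the male PITX1+ ones were thus highest. *Cenpf* stood at 2.86 and 2.64 in the female Control sections, 1.72 and 1.59 in the female PITX1+ sections, 0.6875 in the male Control section with its 16 members, and 1.21 and 1.27 in the male PITX1+ sections. Between the unwounded skin slides, slide and sex cannot be told apart.

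**Figure D3:**
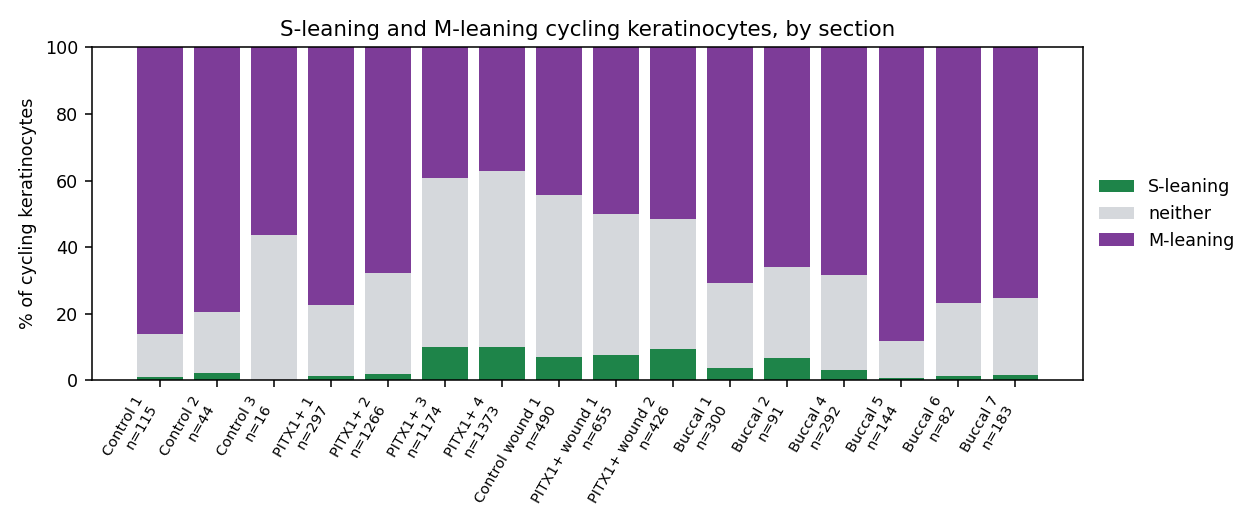
Composition of the cycling keratinocytes of each section by phase, in percent of members, with the number of members under each bar. Segments are S-leaning, neither and M-leaning cells. The S-leaning segment is at most 2.27% in the female skin sections and 9.88% and 9.98% in the male PITX1+ sections.

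To learn which genes outside the rule differ between the phases, M-leaning were set against S-leaning members in the 7 sections with at least 10 of each (PITX1+ 2 to 4, the wounds and Buccal 1), with the section as a block. Of 254 genes tested, 22 passed an adjusted p of 0.05 by edgeR's quasi-likelihood F test, Benjamini-Hochberg adjusted (8.66%), 20 higher (7.87%) and 2 lower (0.787%) in M-leaning cells, and 5.91% changed the same way in every section. In simulated data of this comparison with 265 genes, 6.30% of unchanged genes were called, which is near the share called here, so a single call near the threshold carries little weight. The split of higher and lower genes was 9 and 4 by library size and 6 and 4 with DESeq2. Both *Pttg1* and *Tyms*, which place a cell in the cycle, were among them. *Pttg1*, the securin that *Cdc20* helps to remove, was higher in M-leaning cells by 1.31 on the log2 scale (SE 0.32, edgeR adjusted p = 0.00459) and in 7 of 7 sections, at 0.111 transcripts per S-leaning and 0.321 per M-leaning cell. *Tyms* was lower (log2 fold change -0.67, SE 0.17, edgeR adjusted p = 0.00579) in 7 of 7 sections, at 0.833 and 0.421 transcripts per cell. *Ezh2* (log2 fold change -0.45, edgeR adjusted p = 0.0867) and *Hist1h1b* (0.17, edgeR adjusted p = 0.62) did not pass, but *Ezh2* was lower in 7 of 7 sections and was called by library size (-0.64) and with DESeq2 (-0.60).

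The other genes that were higher in M-leaning cells of every section were *Mt4*, an epithelial metallothionein, by 1.70 (edgeR adjusted p = 2.87e-05), *Fcgbp* by 1.30 (0.000498), the receptor gene *Erbb3* by 0.56 (0.0315) and the desmosomal cadherin gene *Dsc3* by 0.55 (0.00769). Of the 4 alternatives run, *Erbb3* kept its call in 1 and *Dsc3* and *Pttg1* in 3. On the fixed differentiation list 6 of 14 genes tested were higher and none lower, with a median of 1.06 against 0.13 over all genes tested. Among these were the suprabasal keratins *Krt77*, higher by 2.60 (edgeR adjusted p = 5.91e-05), and *Krt1*, by 2.29 (edgeR adjusted p = 1.18e-07), each in 6 of 7 sections. Nuclei of M-leaning and S-leaning cells measured 36.5 ± 7.92 and 35.7 ± 7.43 µm² (SD, n = 7 sections), a difference of 0.839 µm² with an exact sign-flip p of 0.719.

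Nuclei of cycling keratinocytes were larger than those of the other keratinocytes in each section that had at least 10 members, at medians of 35.0, 36.4 and 46.0 µm² against 22.1, 21.3 and 21.2 µm² in Control. In PITX1+ 1 to 4 members had 48.9, 51.4, 31.6 and 29.6 µm² and the others 33.7, 35.2, 23.3 and 22.1 µm². The female PITX1+ sections thus had the largest nuclei and the male ones lay below Control, and the condition means of 40.4 ± 11.4 (SD, n = 4) and 39.1 ± 6.01 µm² (SD, n = 3) gave an exact permutation p of 0.971. Buccal members had smaller nuclei, 23.4 to 31.0 µm², with a mean of 27.5 ± 2.45 µm² (SD, n = 6). Their difference from Control was -11.6 µm² (exact permutation p = 0.0238, the smallest possible, 0.0357 adjusted over 3 pairs) and from PITX1+ skin -12.9 µm² (exact permutation p = 0.0190, 0.0357 adjusted). Tissue and slide cannot be told apart in either.

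The surroundings of the cycling cells were compared next, to place them relative to hair matrix, differentiated layers and each other. Cells with at least 3 *Shh* transcripts numbered 122, 1130, 570 and 526 in PITX1+ 1 to 4, and there were none in the Control or buccal sections. Within 50 µm of such a cell lay 8.42%, 26.4%, 58.2% and 59.7% of the members in PITX1+ 1 to 4, against 4.79%, 21.6%, 22.4% and 28.7% of the other keratinocytes. Members were thus nearer to *Shh* cells than the rest in every PITX1+ section, with the widest gaps in the male ones. In Control the share was 0 in each section because no *Shh* cell was there, so no test is given. In the wounds 30.4% (Clopper-Pearson 26.4% to 34.7%), 14.2% (11.6% to 17.1%) and 7.51% (5.19% to 10.4%) of members lay near *Shh* cells, the Control wound again being highest. The rule keeps *Shh* cells themselves out of the members.

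With the keratinocytes near *Shh* cells left out, 1.98%, 5.53%, 3.77% and 7.49% of the remaining keratinocytes were cycling in PITX1+ 1 to 4, an alternative chosen after seeing the data. The largest drops were those of PITX1+ 3 and PITX1+ 4, from 6.77% and 12.5%. The mean remained 3.19 percentage points above Control (exact permutation p = 0.114). In the wounds the same step left 9.33%, 5.71% and 3.42%.

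A differentiated cell was defined as one with at least 5 transcripts summed over *Krt1*, *Krt77*, *Lor*, *Flg*, *Flg2* and *Hrnr*. These are part of the differentiation list used below. Such a cell lay within 30 µm of 93.0%, 81.8% and 81.3% of the members in Control. In PITX1+ 1 to 4 this held for 65.3%, 42.1%, 7.92% and 11%. The groups did not overlap, and the male PITX1+ sections were lowest. In those 2 sections the other keratinocytes had differentiated neighbours more often than the members did (21.7% and 36.3%), while in Control less often (67.1%, 66.1% and 46.0%). Buccal members had such a neighbour in 56.3% to 90.2% (median 64.1%), and wound members in 40.8%, 29.3% and 33.8%.

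Members also lay close to each other. Another cycling keratinocyte was within 15 µm of 21.7%, 4.55% and 12.5% of the members in Control and of 35.4%, 56.8%, 78.6% and 83.5% in PITX1+ skin, with no overlap. This share rises with the number of members per area, which differed in the same direction. The nearest stromal cell was at a median of 20.5 to 28.2 µm from members in Control, 15.5 to 18.9 µm in PITX1+ skin and 18.2 to 27.5 µm in buccal mucosa, where the other keratinocytes stood 31.5 to 39.0 µm away.

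**Figure D4:**
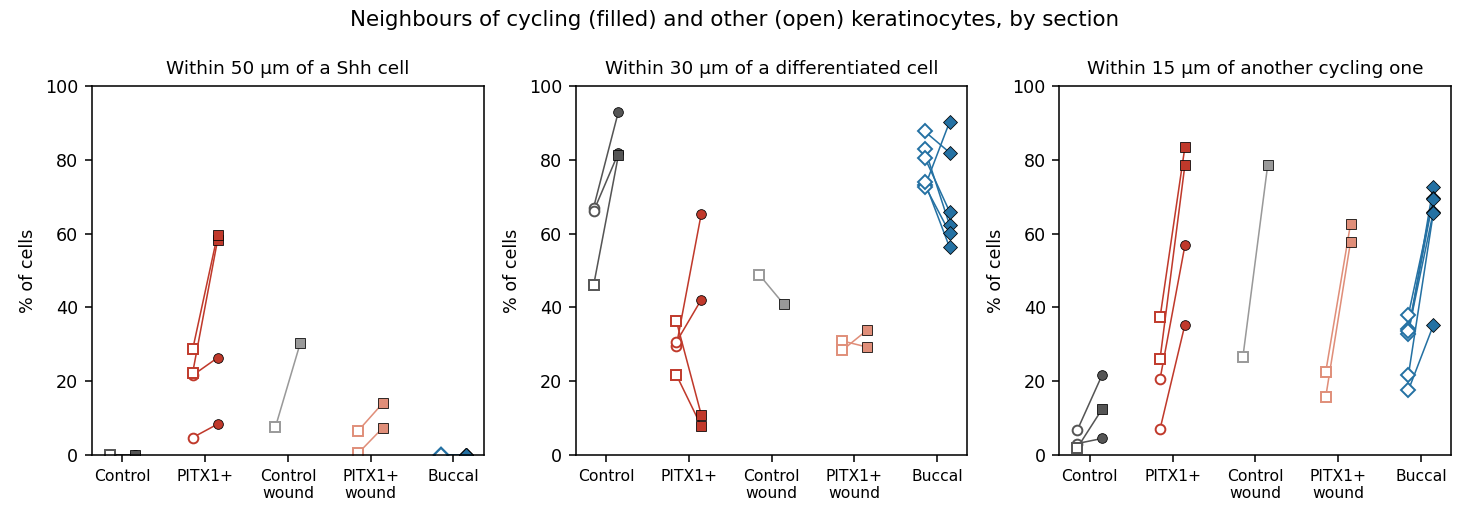
Percent of cells in each section that lie within 50 µm of a *Shh* cell (left), within 30 µm of a differentiated cell (middle) and within 15 µm of another cycling keratinocyte (right). Filled points are cycling and open points other keratinocytes, joined by a line within a section, with circles for the female, squares for the male and diamonds for the buccal slide. In PITX1+ 3 and PITX1+ 4 the filled points reach 58.2% and 59.7% near *Shh* cells and fall to 7.92% and 11% near differentiated cells.

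Between PITX1+ and Control sections, cycling keratinocytes of PITX1+ skin had more transcripts of *Ptch1*, *Lgr5* and *Sostdc1* and fewer of cornification genes. Of 260 genes tested, 29 passed an adjusted p of 0.05 by edgeR's quasi-likelihood F test, Benjamini-Hochberg adjusted and with slide as a covariate (11.2%), 17 higher (6.54%) and 12 lower (4.62%). A further measure of the background is that 23.1% of the genes tested did not overlap between the groups' sections. Control 3 held only 1619 member transcripts, of which 1 outside the rule's genes is worth 776 CPM, and the count of calls falls to 0 without Control 1 (60 genes at an unadjusted p under 0.05) or without PITX1+ 2 (47 genes), to 5 without Control 2, to 7 without PITX1+ 3, to 13 without PITX1+ 4 and to 2 without the slide term. It was 30 of 220 within the female slide, a fit added after seeing the data. Within the male slide Control 3 is the only Control section. The count of that fit, listed with the alternatives, has no Control replicate and is not set against these counts.

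*Ptch1*, a receptor of Hedgehog ligands that the pathway itself induces, was among the genes that rose. It stood at 1734, 2540 and 0 CPM in Control 1 to 3 and at 5043, 18551, 15873 and 13914 CPM in PITX1+ 1 to 4, higher by 3.33 on the log2 scale (SE 0.81, edgeR adjusted p = 0.0416). The groups did not overlap, and all PITX1+ sections except PITX1+ 1 were between 13914 and 18551 CPM. In the other keratinocytes *Ptch1* stood at 2297, 2331 and 1689 CPM in Control and 3265, 11786, 6881 and 5859 CPM in PITX1+ skin.

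*Lgr5*, a Wnt pathway receptor of follicle stem and progenitor cells, stood at 183, 282 and 0 CPM in Control and 685, 1546, 8828 and 8728 CPM in PITX1+ skin, higher by 3.60 (SE 0.81, edgeR adjusted p = 0.0341). *Sostdc1*, an antagonist of BMP and Wnt signalling, went from 1734, 1411 and 2329 CPM to 3704, 3659, 7580 and 6020 CPM (log2 fold change 1.61, SE 0.37, edgeR adjusted p = 0.0341). These were the 2 genes called among 9 follicle genes tested, a list whose median was 0.71 against 0.23 over all genes. Over 19 alternatives *Ptch1* lost its call in 12, *Sostdc1* in 11 and *Lgr5* in 10. *Sox9*, needed for follicle stem cells, had a log2 fold change of 1.49 and missed the threshold (edgeR adjusted p = 0.0514). *Krt75* of the companion layer (2.81, edgeR adjusted p = 0.0656) and *Dlx3* of hair and upper epidermis (2.68, edgeR adjusted p = 0.0833) also missed it, and none of 3 hair differentiation genes passed.

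*Scd2*, *Gstm5* and *Lama5* rose too, the last as the 1 called of 8 basal adhesion genes. The desaturase gene *Scd2* went from 3468, 3104 and 776 CPM to 8311, 13010, 17121 and 16370 CPM, the glutathione transferase gene *Gstm5* from 1095, 1129 and 776 CPM to 3393, 3067, 4270 and 3157 CPM, and the basement membrane laminin gene *Lama5* from 2099, 3104 and 3882 CPM to 5043, 7469, 13982 and 13167 CPM. Their log2 fold changes were 2.54, 1.92 and 1.82, each at an edgeR adjusted p of 0.0341. None of these genes overlapped between the groups. Over 19 alternatives *Gstm5* lost its call in 10, *Lama5* in 9 and *Scd2* in 7. *Scd2* is also on the sebaceous list, the 1 called of its 4 genes tested. Others that passed were *Gja1*, which encodes the gap junction protein connexin 43 (1.88, edgeR adjusted p = 0.00916), *Krt17* (1.11, edgeR adjusted p = 0.0190) and *Igf1r* (1.55, edgeR adjusted p = 0.0341). Of the oral list 1 of 6 genes tested was called, *Tgm3*, higher by 2.53 (SE 0.50, edgeR adjusted p = 0.0316). The list's median was 0.98 against 0.23 over all genes. *Tgm3* missed another criterion by which genes were named here.

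Cornification genes led those that fell. *Krt77*, a suprabasal keratin, stood at 75835, 70542 and 45808 CPM in the cycling keratinocytes of Control and at 4607, 731, 740 and 3038 CPM in PITX1+ skin, lower (log2 fold change -4.37, SE 0.72, edgeR adjusted p = 0.0192). *Flg2*, a filaggrin relative of the cornified layer, stood at 34769, 45711 and 11646 CPM against 872, 204, 315 and 1447 CPM (log2 fold change -5.11, SE 1.00, edgeR adjusted p = 0.0316). Each Control section was above each PITX1+ section by a wide margin for both. *Lor*, the main protein of the cornified envelope, fell by 3.32, *Krt78* by 3.29, *Hrnr* by 2.91 and *Krt23* by 2.76, with edgeR adjusted p of 0.0341, 0.0271, 0.0341 and 0.0192. With transcripts over the nucleus alone, *Hrnr* was at -1.06 (edgeR adjusted p = 0.367) and *Krt23* at -0.49 (edgeR adjusted p = 0.605). In that fit 18 of 239 genes passed, 14 higher and 4 lower. A larger share of members in Control than in PITX1+ skin had a differentiated cell within 30 µm, as given above. The part of transcripts from neighbouring cells in these falls was not tested. The protease inhibitor gene *Serpinb2* fell by 3.07 (edgeR adjusted p = 0.0341) and the matrix gene *Tnxb* by 2.32 (edgeR adjusted p = 0.0495). Over 19 alternatives, the genes named here lost their calls in 2 (*Krt77*) to 13 (*Tnxb*), with *Serpinb2* at 9 and *Lor* at 8. On the differentiation list 7 of 15 genes tested fell and none rose, with a median of -1.57 against 0.23.

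**Figure D5:**
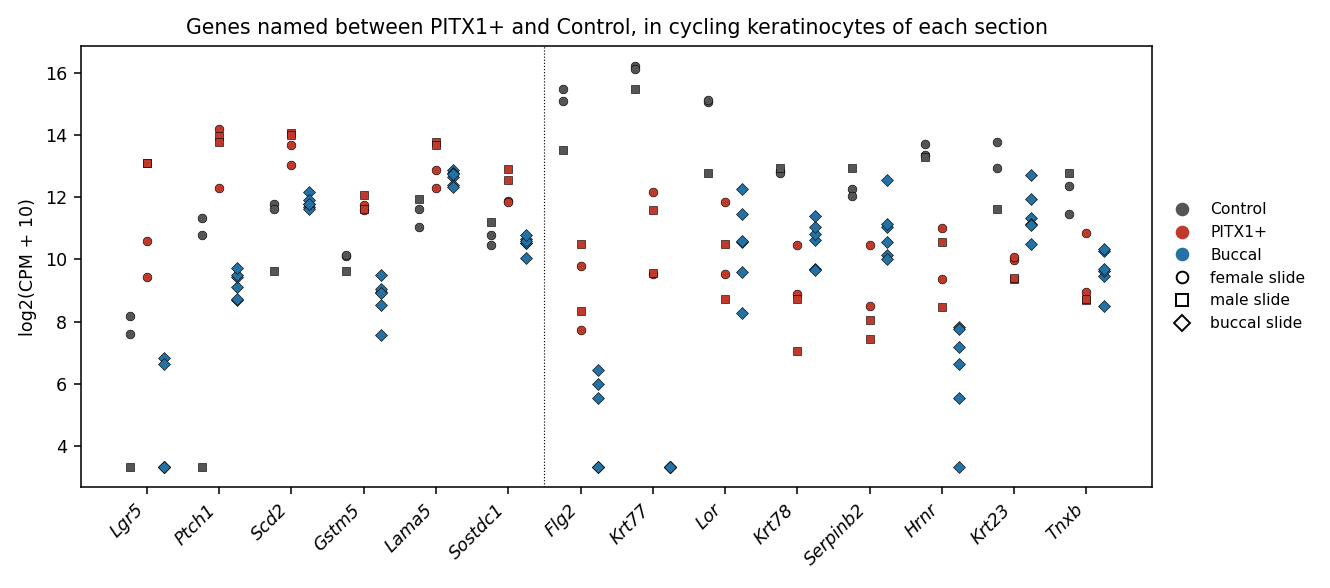
Levels of 14 named genes in the cycling keratinocytes of each section, as log2 of CPM plus 10, with Control in grey, PITX1+ in red and buccal mucosa in blue. Circles are the female slide, squares male slides and diamonds the buccal slide, and points at the bottom are sections with no transcript. The 6 genes left of the dotted line were higher and the 8 to its right lower in PITX1+ than in Control sections, with no overlap of these groups.

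Cell cycle genes outside the rule did not pass the test within the cycling cells. *Tyms* stood at 1551, 2257 and 3106 CPM in Control and at 2521, 3284, 5367 and 5850 CPM in PITX1+ skin, with overlap (log2 fold change 1.06, edgeR adjusted p = 0.0853). The log2 fold changes of *Pttg1*, *Hist1h1b* and *Ezh2* were 0.09, -0.01 and -0.17, and none of the 4 genes was called. *Pitx1* itself had a log2 fold change of 1.07 with an SE of 1.03 (edgeR adjusted p = 0.514). Of the stress list, which holds keratins and alarm genes of injured epidermis, *Krt17* was higher and *Serpinb2* lower among 13 tested. *Krt6a* (0.90, edgeR adjusted p = 0.539) and *Krt16* (2.95, edgeR adjusted p = 0.0669) were not called. *Krt6a* in Control ran from 821 to 27950 CPM, the latter from Control 3 with its 16 members.

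None of the 6 Wnt ligand genes and none of 6 genes of EGF family ligands and receptors passed, while *Igf1r* was the 1 called of 8 genes of the insulin-like growth factor system and *Jag1* (1.32) the 1 of 4 Notch genes. Of the immune list 1 of 7 fell, *Csf1r* of macrophages (log2 fold change -2.36), and the list summed to 5199 to 11118 CPM in Control and 1229 to 4592 CPM in PITX1+ members. The fibroblast list summed to 5559 to 18309 CPM and 8604 to 27971 CPM, and none of its 6 genes was called. The part of these lineages in the calls was not tested, and 15 genes passed without the members that held them. In that fit *Flg2*, *Krt77*, *Lor*, *Krt78*, *Serpinb2*, *Hrnr* and *Krt23* were still called lower, while *Ptch1*, *Lgr5*, *Sostdc1*, *Scd2*, *Gstm5*, *Lama5* and *Tnxb* kept their direction and missed the threshold.

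For each gene it was asked whether its change between conditions differed between cycling and other keratinocytes. Of 317 genes tested, 2 passed by edgeR's quasi-likelihood F test, Benjamini-Hochberg adjusted (0.631%, with 44 at an unadjusted p under 0.05, while 17.7% of the genes did not overlap between the groups' sections), both cornification genes whose change was more negative in cycling cells. *Flg* stood at 3468, 3386 and 6988 CPM in the members of Control and 2926, 908, 274 and 628 CPM in those of PITX1+ skin. In the other keratinocytes it stood at 3089, 3658 and 5102 CPM and 9599, 5315, 2453 and 5265 CPM. The interaction was -2.53 on the log2 scale (SE 0.43, edgeR adjusted p = 0.0162), and in the other keratinocytes alone *Flg* was not called (0.50, edgeR adjusted p = 0.472). For *Hrnr* the interaction was -2.14 (SE 0.42, edgeR adjusted p = 0.0292), with members going from 10403, 13262 and 10093 CPM to 2054, 651, 343 and 1499 CPM. This count rests on single sections: it was 0 without Control 1 or without PITX1+ 3, 1 without Control 2, 5 without Control 3 or without PITX1+ 2, 8 without PITX1+ 4 and 33 without PITX1+ 1.

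In Control skin, cycling keratinocytes held the cornification genes at about the level of the other keratinocytes, with median log2 differences over sections of 0.17 for *Flg*, -0.10 for *Hrnr* and -0.32 for *Lor*. In PITX1+ skin the same differences were -2.60, -2.45 and -2.23, and in buccal sections -1.96, -5.82 and -4.54. Over the 16 sections, members had less of the differentiation list (median -1.28) and of the stress list (-1.80) and more of the basal adhesion list (0.92). These values come from the contrast that selected the cells and are given without a test.

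Buccal cycling keratinocytes held a different epithelial programme from those of Control skin. Of 148 genes tested, 82 passed by edgeR's quasi-likelihood F test, Benjamini-Hochberg adjusted (55.4%), 46 higher (31.1%) and 36 lower (24.3%) in buccal members, and 49.3% of the genes did not overlap between the groups. With most of the genes called, single calls carry little weight of their own and the sizes are given. *Krt4*, the keratin of lining mucosa, ran from 23706 to 44208 CPM with a median of 32802 in buccal sections and stood at 91.3, 0 and 0 CPM in Control (log2 fold change 8.78, edgeR adjusted p = 1.19e-06). *Sox2*, a transcription factor of oral epithelium, ran from 8290 to 11306 CPM with a median of 10057, against 365, 282 and 0 CPM (4.76, edgeR adjusted p = 2.72e-06). Transcripts of both genes were thus counted in the cycling keratinocytes of the cheek. The part of transcripts from neighbouring cells was not tested.

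The metallothionein gene *Mt4* ran from 44773 to 67274 CPM in buccal members against 1004, 1693 and 2329 CPM in Control (5.16, edgeR adjusted p = 4.04e-07). *Tgm3*, a transglutaminase, was higher by 5.04 (edgeR adjusted p = 5.18e-06), *Slpi*, a protease inhibitor of mucosal surfaces, by 4.94 (0.0122), the desmocollin gene *Dsc2* by 3.57 (1.02e-05) and *Hpgd*, which breaks down prostaglandins, by 3.27 (0.000106). *Pitx1* was higher by 3.20 (SE 0.81, edgeR adjusted p = 0.00606). On the oral list 6 of 7 genes tested were higher and none lower, with a median of 3.57 against 0.26 over all genes.

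Genes of epidermal differentiation were mostly lower, 9 of 13 tested against 1 higher, *Grhl3*, with a median of -3.88 against 0.26. *Krt77* and *Clca3a2* had no transcript in any buccal member, which with 3 counts over the group as the limit makes Control at least 3332-fold and 882-fold higher. Lower were *Flg2* (log2 fold change -9.52, edgeR adjusted p = 4.04e-07), *Flg* (log2 fold change -7.48, edgeR adjusted p = 2.11e-06) and *Krt1* (log2 fold change -7.30, edgeR adjusted p = 9.64e-07). *Fcgbp* went from 91166, 59819 and 25621 CPM in Control to between 110 and 1510 CPM. Follicle genes were lower too, 4 of 6 tested, among them *Sox9* (-2.59, edgeR adjusted p = 0.0012) and *Lrig1*, a stem cell gene (-2.06).

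Genes of attachment to the basement membrane were higher in buccal members in 4 of 7 cases. *Itgb4*, the integrin of hemidesmosomes, ran from 20880 to 29468 CPM against 14327, 13826 and 13975 CPM (0.71, edgeR adjusted p = 0.00603), and *Itga6*, *Lama3* and *Lama5* were higher by 0.74, 0.95 and 1.05. *Col7a1* of the anchoring fibrils was the exception, lower (log2 fold change -1.54). Of the insulin-like growth factor list 5 of 8 were higher and none lower, among them the binding proteins *Igfbp7* (2.40, edgeR adjusted p = 0.000356), *Igfbp2* (2.16) and *Igfbp5* (1.42). None of the 4 other cell cycle genes passed, with *Tyms* at 0.68 (edgeR adjusted p = 0.0862), *Pttg1* at -1.19 (0.0527), *Hist1h1b* at -0.52 (0.246) and *Ezh2* at -0.25 (0.319). Over 17 alternatives, *Pttg1* was called lower in 9 and *Tyms* higher in 3, while without Control 1 *Pttg1* was at 0.044, so neither is settled. *Col1a1* was lower (log2 fold change -3.97), and the fibroblast list summed to 1209 to 2626 CPM in buccal members. Its part in the other differences was not tested.

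Set against cycling keratinocytes of PITX1+ skin, buccal ones differed in 110 of 207 genes (53.1%, edgeR's quasi-likelihood F test, Benjamini-Hochberg adjusted), 44 higher (21.3%) and 66 lower (31.9%). Both comparisons use the same buccal sections. *Krt4* stood at 156, 217, 130 and 0 CPM in PITX1+ 1 to 4 and was higher in buccal members by 8.12 (edgeR adjusted p = 5.96e-05), and *Sox2* stood at 125, 184, 27.4 and 56.6 CPM and was higher by 6.66 (edgeR adjusted p = 1.38e-05). In both skin groups these genes were therefore at a small part of the buccal level. *Mt4* (5.82), *Chil3* (5.63), *Mt3* (5.24), *Sprr3* (4.62) and *Efemp1* (3.64) completed the largest rises with *Tgm3* (3.59). *Pitx1* did not pass (1.2, edgeR adjusted p = 0.157). The male PITX1+ sections lay inside its buccal range and the female ones below it.

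Follicle genes were among those lower in buccal than in PITX1+ members, as were genes of other lineages. Lower were *Lgr5* (log2 fold change -7.66, edgeR adjusted p = 0.0002) and *Krt79* (log2 fold change -7.67, edgeR adjusted p = 1.38e-05). *Cntfr*, a cytokine receptor subunit, went from 7066, 18965, 14653 and 13157 CPM in PITX1+ skin to between 0 and 329 CPM in buccal mucosa (log2 fold change -6.47). *Lhx2*, a follicle transcription factor, and *Lbh* were lower as well (log2 fold changes -6.18 and -5.73). PITX1+ skin held at least 273-fold more *Clca3a2* and at least 119-fold more *Krt77*. Of 9 follicle genes 7 were lower and 1 higher, all 3 hair differentiation genes were lower, with medians of -2.47 and -6.47 against -0.26 over all genes. Of the fibroblast list 4 of 5 were lower, with a median of -2.24 and *Col1a1* at -4.11, as were both sebaceous genes tested, *Scd2* and *Elovl6*. The part of these lineages in the other differences was not tested. On the stress list 3 of 12 were higher in buccal members and none lower, near the 21.3% called higher among all genes tested. The median of this list was 1.08 against -0.26 over all genes. *Krt6a* was among those called (1.78, edgeR adjusted p = 0.000463). None of the 4 cell cycle genes outside the rule was called, with *Tyms* at -0.17 (edgeR adjusted p = 0.62).

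In the wounds, cycling keratinocytes of PITX1+ skin had some of the differences of unwounded skin and lacked others, as values of 1 Control and 2 PITX1+ wounds. *Gstm5* stood at 690 CPM (exact Poisson interval 522 to 893) in the Control wound against 8278 (7704 to 8883) and 7883 CPM (7167 to 8652) in the PITX1+ wounds, and the highest unwounded section had 4270 CPM. *Lgr5* was at 2069, 1683 and 1864 CPM and *Ptch1* at 3847, 2209 and 3533 CPM, with the Control wound highest. For *Lgr5* the exact Poisson intervals of the wounds overlapped. For *Ptch1* that of the Control wound (3436 to 4294) overlapped that of PITX1+ wound 2 (3059 to 4060). It lay above that of PITX1+ wound 1 (1917 to 2532). The cornification gene *Flg2* was low in all wounds, at 423, 214 and 71.0 CPM, and *Krt77* at 617, 1040 and 124 CPM.

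Injury keratins were found in the members of all 3 wounds. *Krt6a* stood at 14758, 14690 and 10742 CPM and *Krt17* at 65238, 93093 and 87052 CPM. *Krt16* stood at 12932, 11237 and 9499 CPM, each above every unwounded skin section. *Slpi* stood at 1089 CPM (875 to 1338) in the Control wound and 4868 and 4456 CPM in the PITX1+ wounds, and *Krt4* at 12.1 CPM, a single transcript, against 1115 and 2166 CPM. In the PITX1+ wounds both genes were above every unwounded skin section, and *Krt4* was far below every buccal section with members. *Tyms* was at 4355, 4428 and 4989 CPM. No test was made over the wounds, and the labels do not say whether both PITX1+ wounds came from 1 animal.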

How the data were processed

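Each of the 4 slides was deposited by the authors as the instrument wrote it, with counts of transcripts per cell, not normalized, and a table of decoded transcripts in which each has a quality score and a mark for lying over the nucleus. Positions and areas are other deposited quantities, in µm and µm². Which software version and segmentation settings were used is not given in the sources used here. A quality score of at least 20 was required of a transcript of the 328 panel genes, and the sums equalled the deposited counts in 100% of cells. Between 98.1% and 99.1% of transcripts lay in cells. Sections of at least 2000 cells were separated by joining cells within 100 µm (200 µm on the slide with wounds). Unwounded sections were also checked by number of cells with at least 3 different genes: it was within 0.487% of a total listed for the assigned condition in the study's cell counts (4.91% for 1 buccal section), and at least 8.64% away from those of the other conditions. No cell lay on more than 1 slide, although 1 to 7 cell names recur between pairs of slides.

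Counts of members were summed per section (134076 to 5560931 transcripts in all cells of a section, 1619 to 228846 in the members of a skin section). The 11 genes of the rule were left out of the totals behind CPM and of the counts of genes tested and called. In the fits they stayed in the library sizes, the scaling and the adjustment of p. Sections with at least 10 members were compared in R 4.3.3 with edgeR 4.0.16 (glmQLFit and glmQLFTest after filterByExpr and TMM scaling, p adjusted by Benjamini-Hochberg over all genes tested, threshold 0.05), with slide as a covariate between skin conditions and section as a block between phases. The change in members was set against that in other keratinocytes by an interaction with section as a block. Shares, areas and distances were compared over sections with exact two-sided permutation tests (Python 3.11.15, numpy 2.4.6, scipy 1.17.1, pandas 2.3.3). Nothing in the labels says that sections are separate animals, so p-values measure the spread between sections. Intervals are 95% exact binomial or Poisson. No doublets were removed.

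Genes named are the 8 largest changes in each direction that passed the threshold, did not overlap between the groups' sections (between phases, changed the same way in every section) and had at least 0.2 transcripts per member in the higher group, with *Pitx1*, 4 other cell cycle genes and members of the lists. A few genes that met this rule are left out here. The members and all lists were chosen with earlier results of these data known. Alternatives tried were scaling by library size alone, DESeq2 1.42.0, no filter, transcripts over the nucleus, cell cycle thresholds of 4 and 8, a gate of 4, at least 20 transcripts, other depths of thinning, leaving out mixed cells, cells near *Shh* cells, the slide term or 1 section. Tested on simulated data, the comparison of PITX1+ with Control recovered 79.5% of genes changed by 2 on the log2 scale and 24.1% of those changed by 1, and called 1.57% of unchanged ones among 271 genes.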

Additional observations from a re-analysis of the deposited data

Results flagged for a closer look

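In 4 of 66 groups of 4 to 7 sections, 1 section stood apart from the rest by Dixon's criterion, which chance meets in about 1 of 20 groups. In PITX1+ 1, *Lbh* was low at 4856 CPM, and *Serpinb2* and *Tnxb* were high at 1401 CPM and 1837 CPM in its 297 cycling keratinocytes. Among buccal sections, *Lhx2* was high in Buccal 6 at 179 CPM, which is 2 transcripts.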

How the results depend on the processing

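The called genes named for PITX1+ against Control kept their direction in the 19 alternatives run, though many lost the threshold: of 395 values of named and listed genes under alternatives, 246 stayed on their side of it, 128 lost it, 1 gained it and 20 turned, all 20 those of uncalled genes. The count of 29 genes was 68 with DESeq2, 18 over the nucleus, 54 from 4 cell cycle transcripts, 15 without mixed cells, 2 without the slide term, 57 on the male slide alone (chosen after seeing the data) and 0 to 41 with 1 section left out. The count on the male slide rests on Control 3, its only Control section, and so has no Control replicate. It is not comparable with the main count of 29 and is listed for completeness only. Against Control, buccal members gave 174 of 317 genes without the filter on low counts, 59 higher and 115 lower. The main fit gave 82 of 148, 46 higher and 36 lower. Without Control 3 there were 119 of 193, 54 higher and 65 lower. The 2 genes of the interaction became 6 by library size and 0 to 33 with 1 section left out, with 45 and 40 genes at an unadjusted p under 0.05 where edgeR called 0. Between phases, 22 genes became 13 by library size and 10 with DESeq2. The share of cycling keratinocytes in buccal minus Control sections was 3.36 percentage points, and 2.93 to 4.17 with 1 section left out. It was 4.79 with a gate of 4 (exact permutation p = 0.0476, over 6 buccal sections since Buccal 3 then has no keratinocyte). Thinned to 100 transcripts it was -0.124, and this sign rests on Buccal 3, which counts there as a section with 0 of 2 keratinocytes. As rule transcripts per 10000 it was -25.3. Buccal minus PITX1+ was 0.172 without keratinocytes near *Shh* cells and -75.4 per 10000 transcripts, the first of these added after seeing the data and the second a rate of the rule's own genes, given with no test. The nucleus difference between PITX1+ and Control, 1.29 µm², was -2.55 µm² from 8 cell cycle transcripts and -2.39 to 4.88 µm² with 1 section left out. Between buccal and Control it was -13.7 to -8.19 µm² with 1 section left out, and without a Control section the exact permutation p was 0.0714, the smallest possible.

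Turned values of uncalled genes, as log2 fold changes, were these. PITX1+ against Control: *Hist1h1b* 0.13 without the filter, 0.11 from 8 transcripts, 0.011 without mixed cells and -0.47 to 0.066 with 1 section left out. *Pttg1* was -0.14 by library size, -0.11 with DESeq2, -0.16 over the nucleus, -0.074 from 4 transcripts, -0.34 without mixed cells, -0.11 without the slide term, -1.16 on the male slide and -0.35 to 0.61 with 1 section left out. *Ezh2* was 0.65 on the male slide and -0.69 to 0.061, and *Pitx1* -0.70 from 8 transcripts and -0.068 to 8.33, with 1 section left out. Buccal against Control: *Hist1h1b* 0.13 from 8 transcripts and -0.67 to 0.20, *Pttg1* -1.46 to 0.044, and *Ezh2* 0.082 without the filter and -0.53 to 0.12, with 1 section left out. Buccal against PITX1+: *Hist1h1b* -0.38 to 0.024, *Pttg1* 0.47 with male PITX1+ sections alone, and *Ezh2* -0.067 by library size, -0.33 with male PITX1+ sections alone and -0.10 to 0.31. Between phases, *Hist1h1b* was -0.047 by library size and -0.30 with limits of 4 and 0. The cause of these changes was not tested. Control 3 with 16 members limits every comparison with Control.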

Other observations

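Cycling cells were rarer among keratinocytes with the injury keratins *Krt6a* and *Krt16* in PITX1+ skin and in the wounds. With each keratinocyte thinned to 50 transcripts, 0.295%, 2.36%, 2.22% and 3.20% of those with at least 2 transcripts of the pair were cycling in PITX1+ 1 to 4, against 5.10%, 12.2%, 14.7% and 17.7% of those with none. In the Control wound the shares were 4.54% and 15.8%, and in the PITX1+ wounds 2.13% against 10.8% and 1.27% against 7.94%. In buccal mucosa, where cycling keratinocytes held *Krt6a*, the shares ran from 2.80% to 8.62% and from 2.53% to 7.62%. Within sections the share was lower with the pair in Buccal 1, 4, 5 and 7 and higher in Buccal 2 and 6. Control skin had 11, 2 and 122 such keratinocytes, too few for a like comparison in the female sections, and in Control 3 the direction was the opposite, with 8 of 122 (6.56%) against 8 of 284 (2.82%). These shares come from the cells the rule selected and carry no test. At a fixed depth of 50, transcripts of the pair leave fewer places for cell cycle transcripts, and the size of this effect was not tested.

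For *Krt15*, a keratin of the basal layer, the share was higher among keratinocytes that held it in buccal mucosa and in part of the skin sections. Among buccal keratinocytes thinned in the same way, 11.5%, 5.56%, 11.5%, 14.6%, 10.8% and 5.77% of those with at least 2 *Krt15* transcripts were cycling in Buccal 1, 2, 4, 5, 6 and 7, against 4.33%, 1.62%, 4.44%, 3.67%, 6.09% and 2.47% of those with none. In skin it was higher with *Krt15* in Control 1 and 2, in PITX1+ 1 to 3 and in both PITX1+ wounds (10.8% against 5.45% and 13.8% against 3.39%). It was lower in Control 3 (1.90% against 6.25%), in PITX1+ 4 (10.9% against 14.5%) and in the Control wound (6.56% against 10.8%).

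Among other genes tested for a difference between slides in the change from Control to PITX1+, 6 of 297 passed (edgeR's quasi-likelihood F test, Benjamini-Hochberg adjusted). *Krt15* was among them with an interaction of 3.27 (edgeR adjusted p = 0.0188) and *Krt79*, a keratin of the follicle funnel, with -3.26 (edgeR adjusted p = 0.0281). The other genes that passed, *Igfbp7*, *Cstdc5*, *Stfa3* and *Sprr2a3*, had larger interactions, from -11.05 to 12.43. The male side of each rests on Control 3 alone, with 16 members and 776 CPM to a transcript, so these values have no replicate there. None of the genes named for the comparison of PITX1+ with Control passed. Between these slides, slide and sex cannot be told apart.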
